A study of Mus musculus with 18 samples.

Results

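Hearts of mice given a vector for PLCb1a were compared with hearts of mice given a blank vector, with 6 hearts in each group. These 12 hearts were chosen by the vector named in their labels, out of 18 in the series, and the other 6 received PLCb1b. All were from male C57BL/6 mice aged 17 weeks, each mouse giving 1 library. The mice had received the vector through the tail vein at 8 weeks of age, 9 weeks before the hearts were taken. The PLCb1a vector was rAAV6-FLAG-PLCb1a, a recombinant adeno-associated virus of serotype 6 carrying a FLAG-tagged enzyme. The blank vector was an rAAV6 with a promoter and no protein product, so both groups carried virus and neither was untreated. The labels name the tissue as both ventricles, whereas the study's methods name the left ventricle. The comparison addresses what the splice variant regarded as inactive in heart does to the transcriptome, beyond what the virus does.

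Phospholipase C beta enzymes are activated by the Gq class of G proteins, which act downstream of receptors for noradrenaline, endothelin and angiotensin. They cut the membrane lipid PIP2 into inositol trisphosphate, which opens calcium channels of internal stores, and diacylglycerol, which activates protein kinase C. The splice variants PLCb1a and PLCb1b share the catalytic core and differ in their C-terminal tails, and in heart muscle cells PLCb1b is the form known to reach the cell membrane.

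The values are reads counted on genes, after depletion of ribosomal RNA. The libraries held 13354157 to 21470365 counts in blank hearts and 13246339 to 24155465 in PLCb1a hearts. Mitochondrially encoded genes took 67.8 to 70.3% and 67.1 to 70.5% of them, which left 3908354 to 7591558 counts per heart for nuclear genes. Most of the mitochondrial share was 1 ribosomal RNA gene, mt-Rnr2. It took 55.0 to 56.8% of all counts in blank and 53.5 to 56.1% in PLCb1a hearts. CPM below are counts scaled to library size by TMM and given relative to a fixed library total, and FPKM are the deposited values per length. The 9 heart muscle markers were present in every heart. Without TMM scaling, they summed to 22870 to 26220 CPM in blank and 23030 to 25490 in PLCb1a hearts. Of 9 lung and liver markers, 6 were at 0 in every heart. Mouse numbers ran from 26 to 36 in blank and from 7 to 21 in PLCb1a hearts, and the library numbers in the titles also ran in blocks by vector. Any effect of handling order therefore cannot be told apart from that of the vector.

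Plcb1, the gene that the vector carries, lies on chromosome 2 of mm10 from 134786164 to 135475258. It was at 5.43, 6.22 and 6.89 CPM (lowest, median and highest) in blank hearts and at 17.8, 22.0 and 29.3 CPM in PLCb1a hearts. Every PLCb1a heart was above every blank heart, and heart 21 had the most. The rise was 3.52-fold, or 1.82 on the log2 scale (standard error 0.26, FDR 0.0299, edgeR's quasi-likelihood test with Benjamini-Hochberg adjustment). The exact two-sided permutation test of the CPM gave p = 0.0022, the smallest that this design allows. Counts on Plcb1 cannot separate vector RNA from that of the endogenous gene. The other 10 tested phospholipase C genes included 0 that were called and 0 at an unadjusted p under 0.05. Plce1 had a median of 31.1 CPM in blank and 31.5 CPM in PLCb1a hearts, and Plcb4 had 30.2 and 28.8 CPM.

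Apart from Plcb1, few genes differed and by little. Of 12281 genes tested, 17 (0.138%) were called at an FDR below 0.1, of which 12 (0.0977%) rose and 5 (0.0407%) fell in PLCb1a hearts. This count depends on an option of the test, robust shrinkage of the gene-wise spread, which was chosen after both counts had been seen. Without it 10 genes were called, 9 of them among the 17. Only 4 of the 17 changed by more than 1.5-fold, and the smallest called change was 1.14-fold. Unadjusted p was under 0.05 in 1054 genes (8.58%), 543 higher (4.42%) and 511 lower (4.16%). In 9 of the 17 the CPM of the PLCb1a hearts did not overlap those of the blank hearts, 5 higher and 4 lower. Over all genes tested, 38 were without overlap on the higher side (0.309%) and 35 on the lower side (0.285%). In blank hearts, 6 of the 17 were below 1 FPKM, among them Plcb1 itself.

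**Figure D1:**
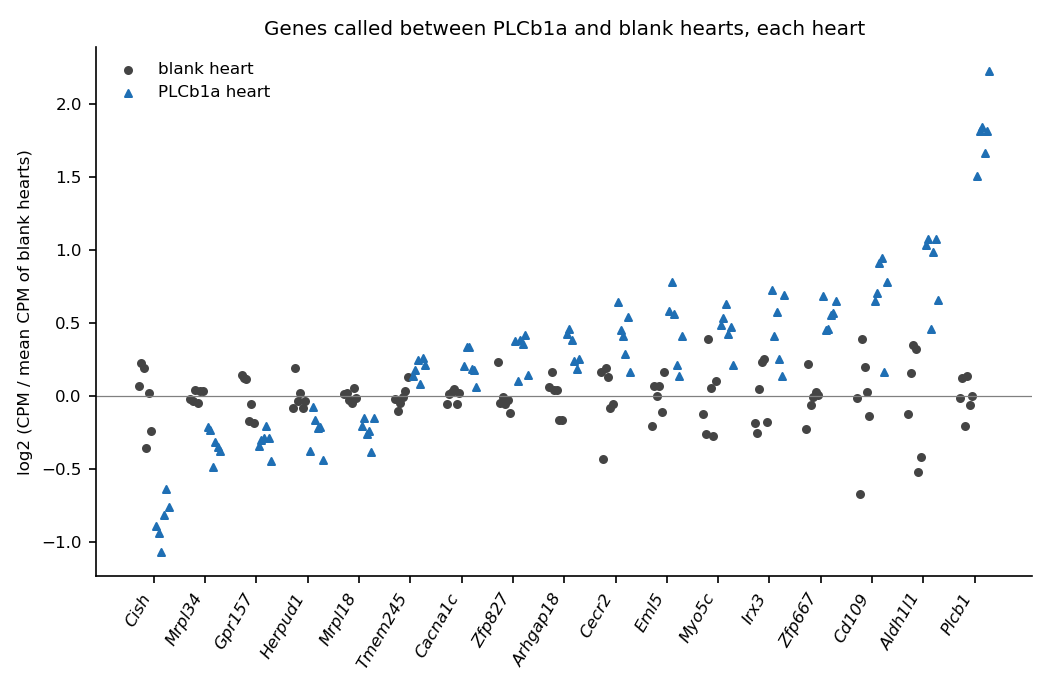
Each of the 17 called genes in each heart, as log2 of its CPM over the mean CPM of the 6 blank hearts (circles, blank hearts, and triangles, PLCb1a hearts). Plcb1 at the right and Cish at the left stand clear of the blank hearts, while in genes such as Tmem245 and Zfp827 the 2 groups lie close together or overlap.

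Cish carried the lowest p of all genes tested. It encodes an SH2 domain protein of the SOCS family, which is induced by STAT5 after growth hormone or cytokine signals and damps them in turn. The gene lies on chromosome 9 of mm10 from 107296689 to 107301961, on the plus strand, with 3 exons. Below is the stretch around its start in RefSeq (GRCm38.p6, the mm10 coordinates), shown because it holds the STAT5 motif at the gene with the clearest fall. It runs over chr9:107296409-107296678, from 250 bases before the RefSeq start to the base 20 after it, and capitals mark the matches to TTCNNNGAA.

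Cish: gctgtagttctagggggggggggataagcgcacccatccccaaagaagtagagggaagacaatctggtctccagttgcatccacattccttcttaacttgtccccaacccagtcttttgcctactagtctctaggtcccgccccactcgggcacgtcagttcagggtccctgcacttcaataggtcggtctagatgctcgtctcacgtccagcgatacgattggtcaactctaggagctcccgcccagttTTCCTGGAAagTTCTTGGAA

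Both matches lie just past the RefSeq start, at bases 1 to 9 and 12 to 20 counted from it. The gene model whose position is given above starts further downstream, so both matches lie before that start. The motif reads the same on both strands and was searched in windows from 250 bases before to 50 after each start. It was found in 8.47% of all 27025 promoters and in 6.85% of those of tested genes. Of the called genes, 15 had a window, and 3 of these held the motif, namely Cish, Mrpl34 and Plcb1. The ER stress response element (in 0.13% of promoters), the NRF1 site (0.977%) and the E-box CACGTG (7.24%) were found in 0 of the 15. These matches describe letters only and do not show that a factor was bound.

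Cish was at 15.8, 20.9 and 23.7 CPM in blank hearts and at 9.64, 11.2 and 13.03 CPM in PLCb1a hearts. All 6 PLCb1a hearts were below all 6 blank hearts, and the highest PLCb1a heart (heart 14) stayed under the lowest blank heart (heart 33). It fell 1.79-fold (log2 fold change -0.84, standard error 0.09, FDR 1.4e-05, edgeR's quasi-likelihood test). It remained called with each of the 18 hearts left out in turn, which held otherwise for Plcb1 alone. Around it in the growth hormone, cytokine and JAK-STAT list, 45 genes were tested and 1 was called (Cish itself). Over all genes tested, 0.138% were called. At an unadjusted p under 0.05 the list held 0 higher and 4 lower including Cish (8.89%), against 4.42% and 4.16% of all genes tested. The others of these 4 were Socs2, a STAT5 target that also restrains growth hormone signals (log2 fold change -0.20), the interferon gamma receptor Ifngr1 (-0.18) and Igfals, a carrier protein of the IGF complex (-0.38). The median of the list was -0.016, against -0.0018 over all genes tested, and it turned to 0.0088 without blank heart 32 and 0.0023 without PLCb1a heart 21.

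Among the 12 genes that rose was the pore subunit of the L-type calcium channel, Cacna1c, which admits the calcium that starts each contraction. Its 20.7 ± 1.16 FPKM (SD, n = 6) in blank hearts made it the most abundant of those 12 per length. It was at 151, 159 and 162 CPM in blank and at 164, 179 and 197 CPM in PLCb1a hearts, so that the groups did not overlap although the rise was 1.16-fold. On the log2 scale the rise was 0.22 (standard error 0.04, FDR 0.0386, edgeR's quasi-likelihood test), and the call was lost without blank heart 34 or PLCb1a heart 11. Of 12 calcium channel subunits tested, 4 were higher (33.3%, against 4.42% of all genes tested and 13.5% of those of 8 kb and over) and 0 lower at an unadjusted p under 0.05, on a median exonic length of 7700 bases. The 4 include Cacna1c itself, and the list was chosen with earlier results of these data known. The other higher ones were the pore subunits Cacna1s (log2 fold change 0.35) and Cacna1d (0.39) and the auxiliary subunit Cacna2d2 (0.62), all below 1 FPKM in blank hearts. The abundant auxiliary subunit Cacna2d1 had a log2 fold change of 0.02.

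Several genes that rose belong to the cytoskeleton and its control. Myo5c, a class V myosin that carries vesicles along actin, was at 4.58, 5.42 and 7.26 CPM in blank and 6.41, 7.71 and 8.58 CPM in PLCb1a hearts. Of 6 PLCb1a hearts, 5 were above all blank hearts (log2 fold change 0.47, standard error 0.09, FDR 0.0386 in edgeR). Arhgap18, a GTPase-activating protein, was at 10.5, 12.1 and 13.2 CPM in blank and 13.4, 14.7 and 16.2 CPM in PLCb1a hearts. The groups did not overlap (log2 fold change 0.34, standard error 0.08, FDR 0.0671 in edgeR). Eml5, a relative of microtubule-binding EMAP proteins, was at 3.59, 4.23 and 4.63 CPM in blank and 4.56, 5.80 and 7.09 CPM in PLCb1a hearts. Only its lowest PLCb1a heart fell within the blank range (log2 fold change 0.47, standard error 0.10, FDR 0.0542 in edgeR). Zc3h14 overlaps Eml5 on the opposite strand, and the counting kept strands apart. Of 32 tested genes of the microtubule list, 20 had higher and 12 lower estimates. At an unadjusted p under 0.05, 3 were higher (9.38%) and 4 lower (12.5%), against 4.42% and 4.16% of all genes tested. All 4 lower ones were tubulins (Tubb4b, Tuba8, Tubb2a and Tubb5).

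Irx3, Cecr2, Zfp667 and Zfp827, which are known or named as factors of transcription and chromatin, also rose. Irx3, a homeobox factor of the ventricular conduction system, was at 3.41, 3.90 and 4.86 CPM in blank and 4.48, 5.73 and 6.73 CPM in PLCb1a hearts. Of the PLCb1a hearts, 4 were above all blank hearts (log2 fold change 0.49, standard error 0.11, FDR 0.0566 in edgeR). Cecr2, a bromodomain protein of chromatin remodelling complexes, was at 9.35, 12.98 and 14.5 CPM in blank and 14.2, 17.1 and 19.7 CPM in PLCb1a hearts. Its lowest PLCb1a heart lay just under the highest blank heart (log2 fold change 0.43, standard error 0.09, FDR 0.0614 in edgeR). The zinc finger gene Zfp667 was at 1.57, 1.83 and 2.14 CPM in blank and 2.50, 2.71 and 2.94 CPM in PLCb1a hearts. These did not overlap, on 21 to 73 counts per heart, with a rise of 0.56 on the log2 scale (standard error 0.12, FDR 0.0666 in edgeR). Zfp827, another zinc finger gene, was at 9.30, 9.81 and 11.8 CPM in blank and 10.8, 12.98 and 13.4 CPM in PLCb1a hearts. Blank heart 26 lay above the rest of its group and overlapped the PLCb1a hearts (log2 fold change 0.31, standard error 0.07, FDR 0.0734 in edgeR).

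These genes belong to 3 lists, which were chosen with earlier results of these data known. The shares below count these called genes and are descriptive only. Of 41 tested chromatin remodelling ATPases and partners, 32 had higher and 9 lower estimates, with 8 higher (19.5%, against 4.42% of all genes tested) and 1 lower at an unadjusted p under 0.05 and a median log2 fold change of 0.059. These are long genes, with a median exonic length of 6376 bases, and among all genes of 8 kb and over 13.5% were higher. The 8 became 5 without blank heart 36, PLCb1a heart 9 or PLCb1a heart 11, 4 with an offset for exonic length and 3 in limma on FPKM. Those higher included the helicases Chd2 (0.16) and Chd4 (0.12), the ISWI partner Baz1a (0.30) and the BAF subunit Arid2 (0.12), and the groups did not overlap in Chd4. The lower one was the helicase Chd6 (-0.14), at 51.3 to 58.3 CPM in blank and 48.6 to 50.6 CPM in PLCb1a hearts, without overlap. Of 38 cardiac transcription factors, 6 were higher (15.8%) and 1 lower at an unadjusted p under 0.05, with a median of 0.077 that was 0.047 without blank heart 30. Beside Irx3 they were Prox1, which acts in muscle fibre identity (0.24), the GATA cofactor Zfpm2 (0.23), Mef2d (0.16), Meis2 (0.18) and Prrx1 (0.13), and the lower one was Klf15 (-0.22), a glucocorticoid-induced regulator of metabolism. The 309 tested Zfp genes, of which 2 were called, had 167 higher and 142 lower estimates, with 19 higher (6.15%) and 7 lower at an unadjusted p under 0.05. Their median of 0.013 was -0.010 with the length offset, where all genes tested had -0.011.

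Of the other genes that rose, 3 are enzymes or membrane proteins. Aldh1l1, which oxidises 10-formyltetrahydrofolate and so removes one-carbon units, was at 0.79, 1.16 and 1.45 CPM in blank and 1.57, 2.30 and 2.40 CPM in PLCb1a hearts. Its rise of 1.89-fold was without overlap but rested on 14 to 58 counts per heart (log2 fold change 0.92, standard error 0.20, FDR 0.0542 in edgeR). In the 32 tested genes of folate and one-carbon metabolism, 3 were higher and 1 lower at an unadjusted p under 0.05. The mitochondrial relative Aldh1l2 (0.24) and the folate carrier Slc19a1 (0.49) were the other higher ones. Cd109, a co-receptor that restrains TGF-beta signals, was at 0.81, 1.29 and 1.68 CPM in blank and 1.44, 2.15 and 2.48 CPM in PLCb1a hearts. It overlapped in 1 PLCb1a heart (log2 fold change 0.74, standard error 0.17, FDR 0.0734 in edgeR). Tmem245 was at 49.2, 52.3 and 57.9 CPM in blank and 55.9, 60.6 and 63.3 CPM in PLCb1a hearts, the smallest and last of the calls (log2 fold change 0.18, standard error 0.04, FDR 0.0890 in edgeR).

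The genes that fell beside Cish were Gpr157, Herpud1, Mrpl18 and Mrpl34. Gpr157, an orphan receptor of the G protein-coupled class, was at 18.8, 21.9 and 23.6 CPM in blank and 15.7, 17.5 and 18.6 CPM in PLCb1a hearts. The groups met without overlapping (log2 fold change -0.30, standard error 0.07, FDR 0.0542 in edgeR). Herpud1, an ER membrane protein induced by unfolded proteins and needed to clear them, was at 71.4, 73.9 and 86.4 CPM in blank and 55.8, 65.2 and 71.8 CPM in PLCb1a hearts. PLCb1a heart 9 reached the blank range, and blank heart 30 lay above the others (log2 fold change -0.25, standard error 0.05, FDR 0.0734 in edgeR). The call was lost in 14 of the 18 fits that left out a heart. Of 42 tested genes of the unfolded protein response and ER-associated degradation, 33 had lower estimates, with 0 higher and 2 lower at an unadjusted p under 0.05 (Herpud1 and Trib3) and a median of -0.047. That median turned to 0.020 without blank heart 30, the heart with the highest level of the list (0.30 on the log2 scale against a next highest blank value of 0.13). The ER chaperone Hspa5 was at 342 CPM at most in blank hearts, against a blank median of 215 and a PLCb1a median of 220.

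Mrpl18 and Mrpl34 encode proteins of the large subunit of the mitochondrial ribosome, which translates the proteins encoded by mitochondrial DNA. Mrpl18 was at 33.8, 35.0 and 36.4 CPM in blank and 26.9, 29.98 and 31.6 CPM in PLCb1a hearts. Mrpl34 was at 11.6, 12.04 and 12.3 CPM in blank and 8.58, 9.53 and 10.4 CPM in PLCb1a hearts. Neither overlapped between the groups, and each blank group was tight. Their log2 fold changes were -0.23 (standard error 0.05) and -0.32 (standard error 0.07), each with FDR 0.0542 (edgeR's quasi-likelihood test). Per length they stood at 47.3 ± 2.61 and 28.5 ± 1.72 FPKM (SD, n = 6) in blank hearts, so that with Herpud1 they were the most abundant of the 17.

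Most of their family had lower estimates. Of 76 tested mitochondrial ribosomal protein genes, 63 had lower estimates, and 16 were lower and 0 higher at an unadjusted p under 0.05 (21.1% against the 4.16% of all genes tested). Beside the called pair, the lowest p belonged to Mrpl20, at 9.35, 9.82 and 10.9 CPM in blank and 7.78, 8.18 and 9.40 CPM in PLCb1a hearts. Small-subunit genes were among them too, as in Mrps7 (log2 fold change -0.18) and Mrps23 (-0.15), while the abundant Mrpl42 was at -0.01. Over all genes tested, 0.285% were lower without overlap. Of these 76 genes 4 were, namely the called Mrpl18 and Mrpl34 and the uncalled Mrpl30 and Mrpl33. The median log2 fold change of the family was -0.089, and it lay between -0.10 and -0.074 when single hearts were left out. The median of the family in each heart, centred on all 18 hearts, ran from 0.026 to 0.092 in blank hearts and from -0.076 to 0.0039 in PLCb1a hearts. These per-heart medians did not overlap.

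Other lists of short genes of protein and energy supply held more lower than higher estimates. Of 72 tested cytosolic ribosomal protein genes, 0 were higher and 13 lower at an unadjusted p under 0.05 (18.1%), with a median of -0.081 that was -0.053 without blank heart 36. Rpl8 was at 70.6, 73.2 and 78.2 CPM in blank and 60.7, 66.6 and 69.7 CPM in PLCb1a hearts, without overlap, but was not called (log2 fold change -0.16, FDR 0.255 in edgeR's quasi-likelihood test). Ribosomal protein genes have many processed pseudogenes, with which reads may have been shared. The per-heart medians overlapped here, since PLCb1a heart 21 (0.092) lay among the blank hearts and blank heart 30 (-0.056) among the PLCb1a hearts. Of 81 nuclear-encoded subunits of oxidative phosphorylation, 64 had lower estimates, 0 were higher and 8 lower (9.88%) at an unadjusted p under 0.05, and the median was -0.047. The 8 became 4 without PLCb1a heart 13, 5 without PLCb1a heart 11, 15 without blank heart 30 and 18 without PLCb1a heart 21, and they were 1 with the length offset and 20 with 1 surrogate variable. Of all genes under 1 kb, 8.72% were lower, and the median exonic length of these subunits was 692 bases. The 8 of the full comparison included the complex I subunits Ndufc2 (-0.15) and Ndufs6 (-0.13) and the complex IV subunits Cox7a1 (-0.091) and Cox6c (-0.10). The 22 tested genes that mitochondria encode themselves had 0 in either direction and a median of 0.035. Of 37 proteasome subunits, 31 had lower estimates and 3 were lower at an unadjusted p under 0.05, with a median of -0.027.

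**Figure D2:**
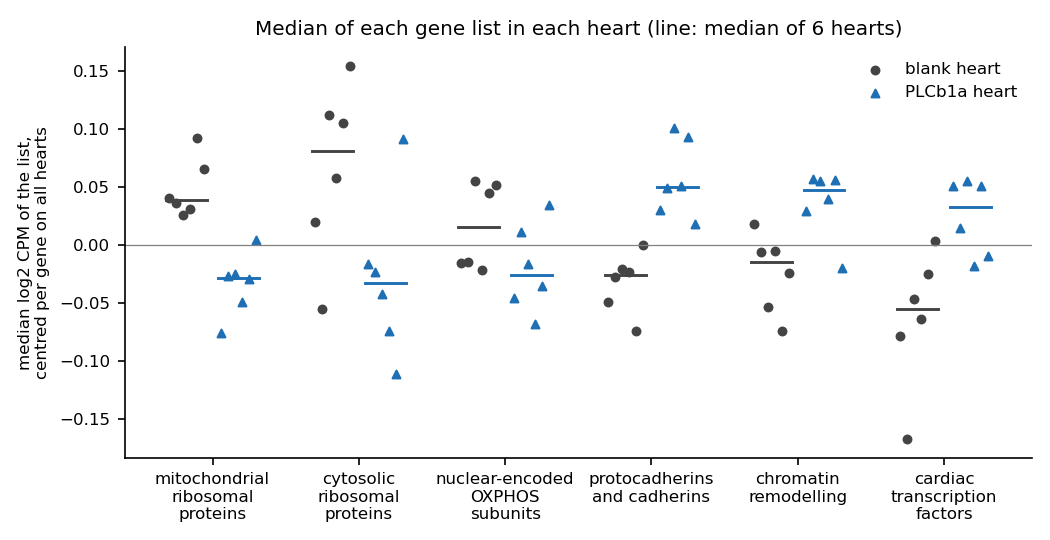
The median of 6 gene lists in each heart, as log2 CPM centred per gene on all 18 hearts, with circles for blank hearts, triangles for PLCb1a hearts and lines for the median of 6. Mitochondrial ribosomal proteins (blank 0.026 to 0.092, PLCb1a -0.076 to 0.0039) and cadherins separate the groups, and the other 4 lists overlap.

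Fold changes also varied with gene length over all genes tested. Grouped by the exonic length of the longest transcript, the median log2 fold change was -0.052 in 837 genes under 1 kb, -0.027 in 2636 of 1 to 2 kb, -0.0034 in 4985 of 2 to 4 kb, 0.021 in 3264 of 4 to 8 kb and 0.044 in 540 of 8 kb and over. At an unadjusted p under 0.05, 9 of the shortest genes were higher and 73 lower, whereas 73 of the longest were higher and 11 lower. By genomic span the order was the same, with 76 higher and 191 lower among genes under 10 kb and 171 higher and 38 lower among those of 100 kb and over. The called genes followed it, with a median exonic length of 6814 bases in those that rose and 1871 bases in those that fell. Over all genes tested the median was 2950 bases. Of the calls, 0 under 1 kb rose and 0 of 8 kb and over fell. These classes held only 837 and 540 of the 12281 genes tested, so few calls would lie in them in any case.

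Heart by heart, the median of genes of 8 kb and over minus that of genes under 1 kb (log2 scale, centred on all 18 hearts) was -0.11 to 0.012 in blank hearts and -0.058 to 0.10 in PLCb1a hearts. Of the PLCb1a hearts, 5 lay above all blank hearts, and heart 21 lay below 4 of them. In the PLCb1b hearts it ran from -0.063 to 0.038. The offset for exonic length was fitted to each heart's own values, so it flattens the medians of the classes by construction. It would also remove an effect of the vector that follows length. With it the medians of the classes came to between -0.015 and -0.0067, and 10 genes were called in place of 17, 7 of them the same. Of those 10, 50% rose, against 70.6% of the 17. On the deposited FPKM, tested by limma on log2(FPKM + 0.1), 6 genes were called and 16.7% of them rose. What sets the gradient was not tested.

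**Figure D3:**
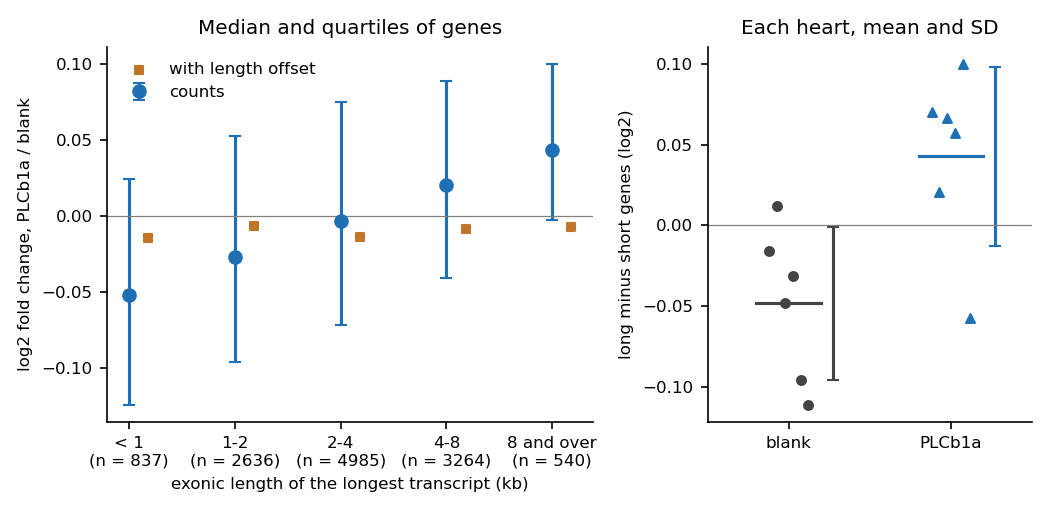
Left, the median and quartiles of the log2 fold change of genes by exonic length (circles with bars) and the median with an offset for length (squares), with the number of genes below each class; right, long minus short genes in each heart with the mean and SD of 6 hearts. The medians climb from -0.052 to 0.044, the squares stay near 0 by construction of the offset, and PLCb1a heart 21 lies among the blank hearts.

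Against this gradient, lists were also read with the length offset. The median of the mitochondrial ribosomal proteins was -0.072 with it, where all genes tested had -0.011, with 0 higher and 9 lower members at an unadjusted p under 0.05. Mrpl18 and Mrpl34 kept their direction (-0.19 and -0.28), with an FDR of 0.130 and 0.131 in that edgeR fit. The cytosolic ribosomal proteins came to -0.047, and the oxidative phosphorylation subunits to -0.0096 and proteasome subunits to -0.0032, close to all genes. The chromatin remodelling genes came to 0.025 and the cardiac transcription factors to 0.056. Cish (-0.84), Plcb1 (1.78), Gpr157 (-0.33), Aldh1l1 (0.91), Irx3 (0.49), Myo5c (0.44) and Cecr2 (0.39) were called with the offset as well.

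Adhesion molecules of the cadherin class had mostly higher estimates. Of 47 tested protocadherins and cadherins, 36 had higher estimates, 5 were higher (10.6%) and 1 lower at an unadjusted p under 0.05, and 0 were called. The 5 became 3 without blank heart 33, PLCb1a heart 9 or PLCb1a heart 14, and 2 with the length offset. The median of 0.11 was 0.081 with the length offset. Per-heart medians were -0.074 to 0.0002 in blank and 0.018 to 0.10 in PLCb1a hearts, without overlap. The cardiac N-cadherin Cdh2, which joins muscle cells end to end, was at 101, 111 and 120 CPM in blank and 112, 120 and 125 CPM in PLCb1a hearts (log2 fold change 0.10, FDR 0.521 in edgeR). The vascular Cdh5 was at 0.11 and the clustered Pcdhga11 at 0.42, and Pcdhga genes share exons that the counting could have split. The lower one was Cdh19 (-0.29), a cadherin of nerve sheath cells.

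Matrix genes had higher estimates more often than lower ones, with per-heart values that overlapped. Of 27 tested collagen genes, 5 were higher (18.5%) and 1 lower at an unadjusted p under 0.05 and 0 were called, with a median of 0.083 that was 0.048 with the length offset. Leaving out single hearts took the median of the collagen genes from 0.038 (without PLCb1a heart 7) to 0.098, and the 5 became 3 without blank heart 33, 2 without blank heart 36 and 1 without PLCb1a heart 13. In limma on FPKM 0 were higher and the median was 0.016. Per-heart medians overlapped, at -0.18 to 0.086 in blank and -0.052 to 0.098 in PLCb1a hearts. The chains of collagen VI were 3 of the 5 (Col6a1 0.15, Col6a2 0.15 and Col6a3 0.17), with fibrillar Col3a1 (0.17) and Col15a1 (0.17), and the lower one was Col4a4 (-0.21). Of 49 other matrix and TGF-beta genes, 6 were higher (12.2%) and 2 lower, with 10 higher without PLCb1a heart 21. Lumican (Lum 0.23), which orders collagen fibrils, the crosslinking enzyme Loxl1 (0.24) and the proteases Mmp2 (0.19) and Mmp14 (0.38) were higher, and the inhibitor Timp4 (-0.42) and Smad6 (-0.33) lower. Without TMM scaling, fibroblast markers summed to 760 to 890 CPM in blank and 785 to 954 CPM in PLCb1a hearts. The highest of these sums was in PLCb1a heart 21, which also had the highest TMM factor (1.08). In whole tissue, fewer cells of a type and less RNA per cell cannot be told apart.

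**Figure D4:**
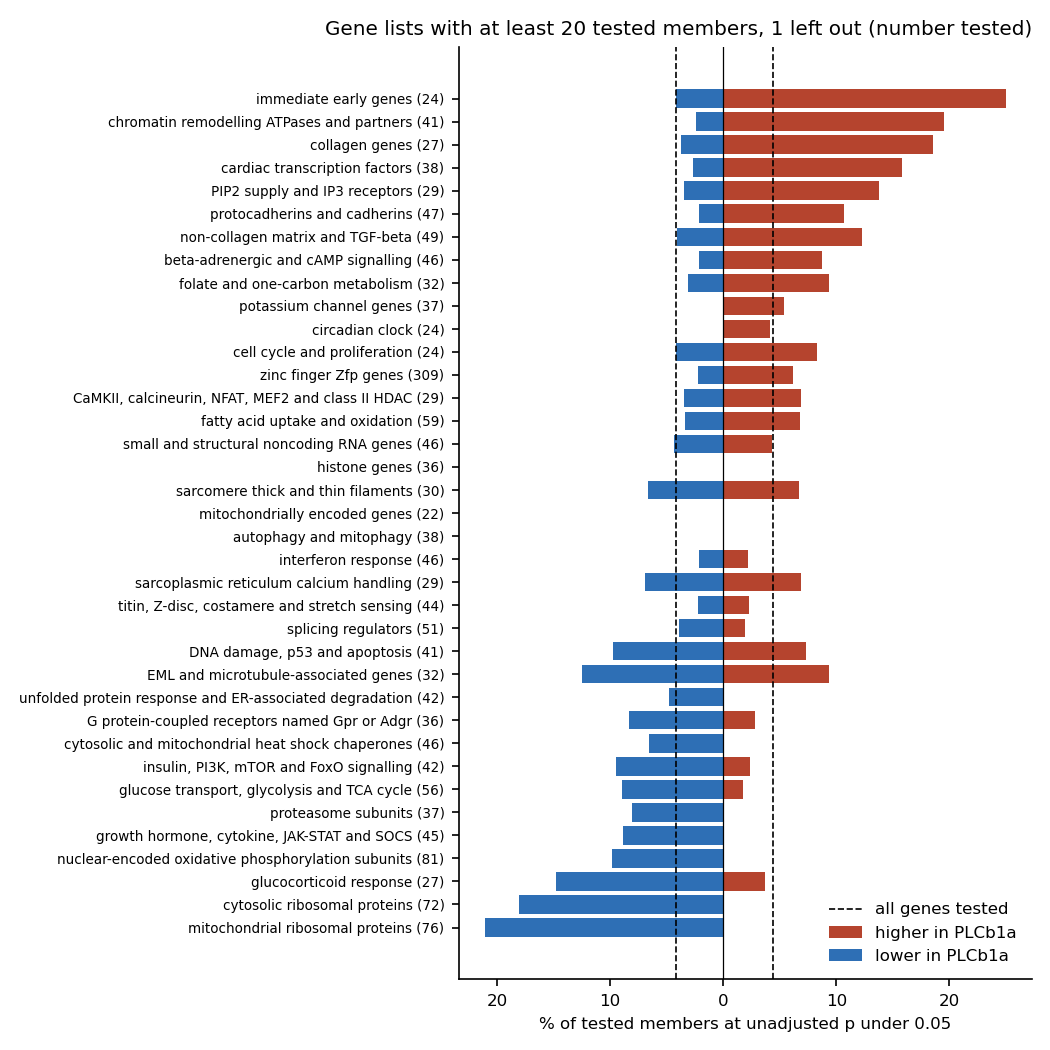
For gene lists with at least 20 tested members, 1 list left out, the percentage of members at an unadjusted p under 0.05 that were higher (right) or lower (left) in PLCb1a hearts, with the 4.42% and 4.16% of all genes tested as dashed lines. Among the long bars are those of immediate early genes (25% higher), chromatin remodelling genes (19.5% higher), collagens (18.5% higher), and mitochondrial (21.1% lower) and cytosolic (18.1% lower) ribosomal proteins.

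Immediate early genes, which are switched on soon after a stimulus, held the largest estimates beside Plcb1 but were not called. Of 24 tested, 21 had higher estimates, 6 were higher and 1 lower at an unadjusted p under 0.05, and the median log2 fold change was 0.52. The largest of these estimates rested on 1 heart. Egr1, a zinc finger factor, was at 64.1 CPM in PLCb1a heart 7, at 4.29 to 14.6 CPM in the other 5 PLCb1a hearts and at 2.60 to 8.14 CPM in blank hearts. Egr2 was at 10.4 CPM in heart 7 and at 0.39 to 1.44 CPM in the other PLCb1a hearts, against 0.22 to 0.75 CPM in blank hearts. The AP-1 subunits Fosb (2.70 CPM) and Fosl2 (61.1 CPM) were highest in the same heart. Without PLCb1a heart 7 the median was 0.19, with 0 members higher and 1 lower. Per-heart medians of the list ran from -0.54 (heart 30) to 0.098 in blank hearts. In the PLCb1a hearts other than heart 7 they ran from -0.18 to 0.19. The FDR of Egr1, Egr2 and Fosb was 0.518, 0.529 and 0.474 in edgeR's quasi-likelihood test. Plcb1 in heart 7 was 17.8 CPM, the lowest of its group.

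**Figure D5:**
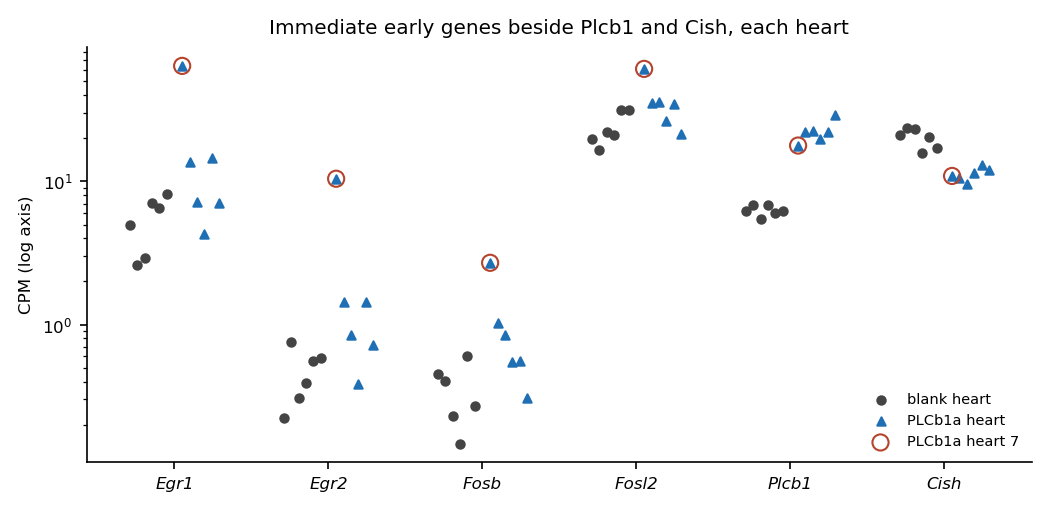
CPM on a log axis of 4 immediate early genes beside Plcb1 and Cish in each heart, with circles for blank hearts, triangles for PLCb1a hearts and a ring around PLCb1a heart 7. Heart 7 is at 64.1 CPM in Egr1, against at most 14.6 CPM in the other PLCb1a hearts, while its Plcb1 and Cish lie with or below those of its group.

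Genes directly around the enzyme were read against all genes tested, of which 4.42% were higher and 4.16% lower at an unadjusted p under 0.05. Of 18 tested Gq proteins and Gq-coupled receptors, 1 was lower at that cut (5.56%), the ADP receptor P2ry1 (-0.24), and 0 were higher. The G protein Gna11 was at a median of 17.3 CPM in blank and 17.4 CPM in PLCb1a hearts. Of 29 genes of PIP2 supply and inositol phosphate turnover, 4 were higher (13.8%, against 4.42% of all genes tested) and 1 lower (3.45%, against 4.16%). The 4 became 2 to 5 when single hearts were left out and 0 to 5 in the other settings. The median of this list was 0.040, and 0.012 with the length offset. Its higher genes were the IP3 receptor Itpr1 (0.12), the lipid enzymes Cdipt (0.17) and Pip4k2a (0.22) and the phosphatase Inpp5k (0.15). The lower one was Inpp5a (-0.12), which removes a phosphate from IP3. Among 19 genes of protein kinase C, protein kinase D and diacylglycerol kinases, 0 passed in either direction. At the shares of all genes tested, few would pass in a list of that size. Prkca, the main conventional isoform in heart, was at 0.12. Of 15 RGS, Shank and Homer genes, Rgs2, which speeds the shut-off of Gq, was at 0.48 (FDR 0.380 in edgeR) and Rgs3 at -0.19. Apart from Plcb1, 0 genes of these lists were called by edgeR's quasi-likelihood test and 0 by DESeq2, and edgeR's exact test called 1, in the list of RGS, Shank and Homer genes.

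The lists below, of contraction and its stress programme, held 0 called genes, where 0.138% of all genes tested were called. Lists of this size would rarely hold a call at that share. The called Cacna1c is not among them, because it was listed with the calcium channel subunits. Of 30 tested thick and thin filament genes, 2 were higher and 2 lower at an unadjusted p under 0.05, with a median of 0.020. The alpha myosin gene Myh6 was at a median of 8347 CPM in blank and 8505 CPM in PLCb1a hearts, and cardiac actin Actc1 at 3031 and 2803 CPM (log2 fold change -0.12, FDR 0.399 in edgeR). Of 44 Z-disc, costamere and titin genes, 1 was higher, the dystrophin relative Utrn. It was at 116, 118 and 122 CPM in blank and 127, 131 and 135 CPM in PLCb1a hearts, without overlap, and was not called (log2 fold change 0.14, FDR 0.163 in edgeR). Of 18 hypertrophy and fetal genes, 1 was higher, the matrix-associated Ctgf (0.21), and 1 lower, Actc1, and the natriuretic peptide gene Nppa was at a median of 27.03 and 27.9 CPM. Calcium handling of the sarcoplasmic reticulum had 2 higher and 2 lower of 29, and the pump Atp2a2 was at 4899 and 4809 CPM. Among 29 genes of calcineurin, CaMKII and their targets, Nfat5, the factor of the osmotic response, was higher without overlap (0.18), and Mef2d was at 0.16.

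Metabolic and hormone lists had members on both sides at an unadjusted p under 0.05, where 4.42% of all genes tested were higher and 4.16% lower. Of 59 genes of fatty acid use, 4 were higher (6.78%), among them Cpt1a (0.33), which admits fatty acids to mitochondria. In that list 2 were lower (3.39%), the receptor Ppara (-0.17) and Acaca (-0.19). Of 56 genes of glycolysis and the TCA cycle, 1 was higher (1.79%) and 5 lower (8.93%), with Idh3a (-0.10) at the lowest p. The 5 became 1 to 7 when single hearts were left out. Insulin and FoxO signalling had 1 higher of 42 (2.38%, Igf1r 0.15) and 4 lower (9.52%), namely Akt1 (-0.14), Pik3r1 (-0.17), Sesn1 (-0.22) and Foxo4 (-0.16). Glucocorticoid response genes had 1 higher (3.70%) and 4 lower (14.8%) of 27. Of these, Zbtb16 was at 43.0, 52.9 and 81.5 CPM in blank and 31.4, 38.5 and 42.8 CPM in PLCb1a hearts, just without overlap. It was not called (log2 fold change -0.54, FDR 0.256 in edgeR), whereas edgeR without robust shrinkage called it, at an FDR of 0.0758. The other lower ones were Klf15 (-0.22), Fkbp5 (-0.43) and Hsd11b1 (-0.23). Autophagy (38 genes) and histone genes (36) had 0 at an unadjusted p under 0.05 in either direction, and 46 interferon response genes had 1 in each.

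Markers of other cell types were summed in each heart without TMM scaling, and their part in the results above was not tested. Endothelial markers summed to 508 to 595 CPM in blank and 552 to 605 CPM in PLCb1a hearts, and macrophage and leukocyte markers to 169 to 206 and 163 to 216 CPM. Atrial markers were more spread in PLCb1a hearts, at 39.7 to 87.7 CPM against 58.8 to 73.2 CPM. Erythrocyte markers summed to 5.62 to 12.1 CPM in blank and 10.9 to 20.5 CPM in PLCb1a hearts, on 7 markers in the table of which 4, the globins, were at 0 in every heart. Alas2, the haem synthesis enzyme of red cells, was at 5.35, 8.33 and 10.6 CPM in blank and 9.13, 13.3 and 15.6 CPM in PLCb1a hearts (log2 fold change 0.63, FDR 0.364 in edgeR). Adipocyte markers were highest in PLCb1a heart 21, at 12.4 CPM against at most 7.70 CPM in the other 11 hearts.

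Genes whose groups did not overlap but that were not called were also named by rule. Those higher with the lowest p were Frmd4a (log2 fold change 0.28, FDR 0.107 in edgeR), Nckap5l (0.64), Nfat5, Ankrd50 (0.25) and the noncoding 2810055G20Rik (0.35). Those lower were the adiponectin relative C1qtnf9 (-0.28), Hint3 (-0.27), Narf (-0.15), 2310044G17Rik (-0.20) and Rpl8. The largest estimates on the lower side were Lrat (-1.30), Slc15a2 (-0.88), Cish, Nr2c2ap (-0.82) and Gm4956 (-0.80), of which Cish alone was called. Tubb1, a platelet tubulin, was among the largest on the higher side (1.501), at 0.15 to 0.70 CPM in blank and 0.39 to 2.095 CPM in PLCb1a hearts.

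Between the splice variants themselves, 0 of 12281 genes (0%) were called at an FDR below 0.1 by edgeR's quasi-likelihood test, with 543 (4.42%) at an unadjusted p under 0.05, and DESeq2 called 1, Plcb1. Among the genes called in PLCb1a hearts, Cish was higher in PLCb1b than in PLCb1a hearts by 0.36 on the log2 scale (standard error 0.09, unadjusted p = 6.0e-04 in edgeR). Its log2 fold change against the shared blank hearts was -0.48 for PLCb1b. Plcb1 itself was 1.09 higher in PLCb1b hearts, and Mrpl34 (0.21), Gpr157 (0.18), Aldh1l1 (-0.44), Zfp667 (-0.27) and Myo5c (-0.19) also had an unadjusted p under 0.05 for PLCb1b minus PLCb1a. These differences did not pass the adjustment, which does not show that the variants act alike.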

How the data were processed

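RNA from the hearts was depleted of ribosomal RNA, sequenced as strand-specific pairs and, by the authors, aligned to mm10 with TopHat and counted per gene with HTSeq in union mode (the submitters' notes name TopHat2 2.0.10 and Cufflinks 2.1). The deposited counts, whole reads per gene, were tested, and the deposited FPKM served for levels per length. The program behind the FPKM is not given in the sources used here. Of 23457 table rows, 27 carried a date in place of a gene name (0.0442% of counts); they stayed in the fit and none is named.

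Genes were filtered with filterByExpr (minimum count 10, minimum total 15) and scaled by TMM, and all 18 hearts were fitted in 1 model of 3 groups with edgeR 4.0.16 (R 4.3.3), by its quasi-likelihood test with Benjamini-Hochberg adjustment at an FDR below 0.1. Robust shrinkage was not specified when the test was set down. It was adopted after the counts of calls with it (17) and without it (10) had been seen, because it recovered the earlier processing of these data. Single genes were also compared by a two-sided exact permutation test over hearts. Named genes were those called, the 5 largest estimates and the 5 lowest p without overlap in each direction, and for each list the lowest p in each direction and the 2 highest mean CPM; other members of a list are named after their values were seen. The comparison, the gene lists and the markers were chosen with earlier results of these data known.

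Alternatives were other scalings and filters, DESeq2 1.42.0, edgeR's exact test, 1 surrogate variable (sva 3.50.0), an offset for exonic length (spline with 4 degrees of freedom), limma 3.58.1 on log2(FPKM + 0.1) and log2(FPKM + 1), and each heart left out. RefSeq promoters (GRCm38.p6) were searched for motifs on both strands. The analysis was tested on simulated data. A few results, among them 1 gene list, are not reported here.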

Additional observations from a re-analysis of the deposited data

Results flagged for a closer look

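Of 58 sets of 6 hearts examined, 4 had a highest or lowest heart whose gap to the next, as a share of the whole range, was above Dixon's critical value of 0.625, and chance gives this in about 1 set in 20. Herpud1 was highest in blank heart 30, at 86.4 CPM, with a gap of 0.634 of the range. Zfp827 was highest in blank heart 26, at 11.8 CPM, with a gap of 0.715. The median of the immediate early genes was highest in PLCb1a heart 7, at 1.10 on the centred log2 scale against at most 0.19 in the other PLCb1a hearts, with a gap of 0.715. The median of the chromatin remodelling ATPases and partners was lowest in PLCb1a heart 21, at -0.020 against 0.030 to 0.057 in the others, with a gap of 0.64. The causes were not tested.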

How the results depend on the processing

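The count of 17 called genes was 10 without robust shrinkage (a setting compared after seeing the data), 33 in DESeq2, 45 in edgeR's exact test, 29 with no filter, 10 with only the blank and PLCb1a hearts, 10 with the length offset, 48 with 1 surrogate variable, 6 in limma on log2(FPKM + 0.1), 6 on log2(FPKM + 1) and 4 at an FDR below 0.05. Of the 17, 9, 11, 17, 16, 9, 7, 17, 3 and 3 were among the calls of the first 9 of these settings. The share of calls that rose was 70.6%, against 60% without robust shrinkage, 48.5% in DESeq2, 50% with only 2 groups, 50% with the length offset and 16.7% in limma. The count was 17 with RLE scaling and 18 with upper-quartile scaling or without mitochondrial genes. With each heart left out the count ran from 3 to 19, with 3 without blank heart 34 or PLCb1a heart 11, 7 without PLCb1a heart 7, 8 without blank heart 32, 9 without PLCb1a heart 14 and 10 without blank heart 36. DESeq2 gave 6668 genes no adjusted p, 6 of the 17 among them. Between PLCb1b and PLCb1a, 0 calls became 1 in DESeq2. Plcb1 was called in every setting, with its smallest log2 fold change, 1.28, in limma on log2(FPKM + 1). For the other 16 called genes, 313 of 474 alternative values kept the call, 161 lost it and 0 changed direction. Of 2424 values of 82 named uncalled genes, 51 became calls. Of 1949 alternative medians of 65 lists and classes, 50 moved by more than the SD between hearts. Other causes of these shifts were not tested. No paired analysis was possible because the groups share no mouse numbers. The counts of 14 to 58 for Aldh1l1 and 21 to 73 for Zfp667 limit the precision of the low genes.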

Other observations

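Noncoding genes held 0 calls among 381 tested by edgeR's quasi-likelihood test, which is near the 0.138% of all genes tested. They had 9 higher and 14 lower at an unadjusted p under 0.05 and a median log2 fold change of 0.014. The 398 tested genes of the X chromosome had a median of 0.028, with 22 higher and 11 lower, where the medians of the autosomes ran from -0.012 to 0.008. Of 46 genes of beta-adrenergic and cAMP signalling, 4 were higher, the phosphodiesterases Pde3a (0.17) and Pde1c (0.13), the cyclase Adcy1 (0.33) and the anchor Akap13 (0.090), and 1 was lower, Pde4c (-0.29). Of 37 potassium channel genes, Kcnn2 (0.22) and Kcnma1 (0.62) were higher and 0 lower. None of these was called.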
